A study of Labroides dimidiatus with 23 samples.

Results

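In forebrain of the cleaner wrasse, 1539 stretches of chromatin of 3 kb to under 10 kb carried called H3K27ac signal over at least 50% of their bases in every one of 22 libraries. They are 2.90% of the 52979 consensus regions of the series, hold 8.51 Mb or 6.37% of the bases in regions, and make up 17.9% of the regions in this length class. The members were chosen by their measured cover: a consensus region is a stretch of bases under deposited peaks in at least 3 of the 22 libraries, with gaps of 200 bp or less closed and a length of 200 bp or more, and its cover in a library is the percent of its bases under that library's peaks. Cover of 50% or more counts as present. That members are present everywhere is therefore a description and not a result.

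The cleaner wrasse (Labroides dimidiatus) is a reef fish that removes parasites from other fish, its clients. The study asked how the forebrain responds when a cleaner meets a client of another species that it already knows. Adult fish that were familiarised with 1 client before a social preference assay form the familiar groups, and fish that had met neither client form the control groups. The titles also carry the number 30 or 120, whose unit the sources used here do not state. The groups are familiar 30 (6 libraries, of which 5 were used), control 30 (5 libraries), familiar 120 (6 libraries) and control 120 (6 libraries), and all were made from forebrain tissue with the same antibody. No strain, genotype, sex or age beyond adult is given.

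H3K27ac is acetylation of lysine 27 on histone H3, a mark found at active promoters and enhancers, where acetylated nucleosomes flank open regulatory DNA. Stretches of the mark that run over several nucleosomes often hold a promoter with its downstream nucleosomes or several enhancers close together. CUT&RUN maps the mark by letting an antibody direct a nuclease to the chromatin that carries it and sequencing the released fragments. Forebrain is a mixture of cell types, so fewer cells that carry the mark and less of the mark per cell cannot be told apart. The peak lists carry no gene names and no genome was used here, so the tissue label was not checked against marker genes, and genes and sequences of the members were not analysed here.

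The 22 lists held 34714 to 48264 peaks over 67.3 to 95.2 Mb. Familiar 30 replicate 2 stood apart with 7077 peaks over 4.70 Mb. It took no part in forming regions or choosing members, and its values are given separately. Familiar 120 replicates 3 and 4 covered the shortest lengths of the other lists, 67.3 and 69.9 Mb. For the comparisons that include familiar 120, median differences over members and counts by p are given with and without them. Counts of groups without overlap, counts by p with the spread fitted along mean cover, and the values printed at named members are given with them only. Members held 7.65 to 9.15% of the covered length of each of the 22 lists.

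Members were 3002 to 9996 bp long, with a median of 5068 bp and a middle range of 3807 to 6961 bp. There were 436 members of 3 to 4 kb and 114 of 9 to 10 kb, but the share of regions that were members was larger at greater length. It was 14.5% of 3010 regions of 3 to 4 kb, 17.7% of 1280 regions of 5 to 6 kb, 21.6% of 649 regions of 7 to 8 kb and 32.1% of 355 regions of 9 to 10 kb. Longer regions of the class were thus more often present in all 22 libraries. Length and presence come from the same peaks and both enter the rule, so this is a description and not a result. The longest member, on chromosome 17 from 18578177 to 18588172, was covered over 87.0% ± 12.3 (SD, n = 22), with a lowest value of 51.5% in familiar 120 replicate 3 and a highest of 99.4% in familiar 30 replicate 5. The next were 9987 bp on chromosome 13 from 3248719 to 3258705, 9983 bp on chromosome 5 from 2544615 to 2554597, 9970 bp on chromosome 1 from 23461416 to 23471385 and 9948 bp on chromosome 13 from 10821224 to 10831171. Mean cover of these 4 was 76.2, 85.1, 88.2 and 80.3%, within the range of the other members.

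**Figure D1:**
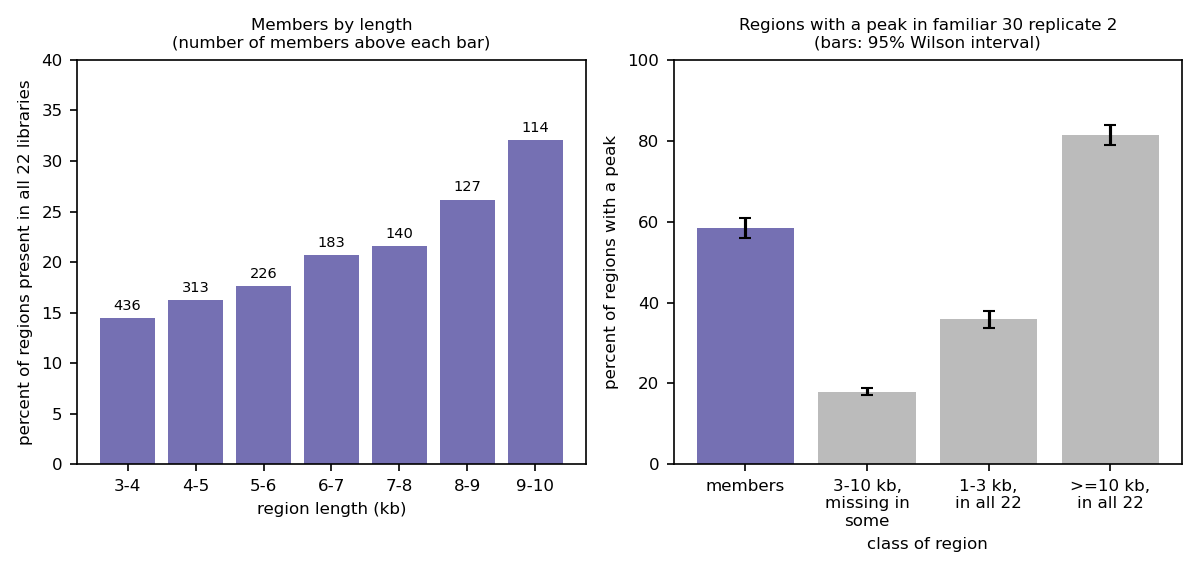
The left panel plots the percent of consensus regions present in all 22 libraries by region length in 1 kb steps, with the number of members above each bar; the share is 14.5% at 3 to 4 kb and 32.1% at 9 to 10 kb. The right panel plots the percent of regions in each class with a peak in familiar 30 replicate 2, with 95% Wilson intervals; members reach 58.3%, and other regions of 3 to under 10 kb reach 17.9%.

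Mean cover over the 22 libraries was 82.5% ± 6.25 (SD over the 1539 members) and ran from 61.1 to 99.1%. The SD of a member's cover between libraries had a median of 10.2 percentage points. The median of the mean cover was 82.7% in members and 62.6% in regions of the same length missing from 1 or more libraries, whose SD had a median of 20.2. Both differences follow from the rule and were not tested. No member was covered in full in every library, while 592 (38.5%) were covered in full in at least 1. The lowest cover of a member in any library had a median of 59.99%. It was under 55% in 446 members (28.98%), at least 75% in 176 (11.4%) and at least 90% in 8.

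At the 5 members of highest mean cover, the bases were under peaks nearly from end to end. The most evenly covered lay on chromosome 9 from 29235966 to 29241623, with 99.1% ± 0.649 (SD, n = 22), a lowest value of 97.4%, a median of 99.2% and a highest of 100%. On chromosome 17 from 4719439 to 4729004, cover was 98.0% ± 1.602, with a lowest value of 94.9%. On chromosome 15 from 6250328 to 6258185 it was 97.8% ± 1.28, with a lowest value of 95.4%. These 3 differed by under 6 percentage points between any libraries. The member on chromosome 18 from 2285319 to 2294310 averaged 98.0% ± 4.92, but familiar 120 replicate 3 covered 79.4% of it and control 120 replicate 5 covered 87.1%. The member on chromosome 8 from 13341806 to 13346093 averaged 97.2% ± 2.63, with 90.5% in familiar 120 replicate 4 and 100% in familiar 120 replicate 3.

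At the other end, the member on chromosome 1 from 1390936 to 1395089 had the lowest mean cover, 61.1% ± 10.6 (SD, n = 22), with values of 51.0 to 91.5% around a median of 56.7%. Members on chromosome 1 from 28393095 to 28396240, chromosome 11 from 12072514 to 12076946, chromosome 2 from 23877405 to 23882372 and chromosome 14 from 9145629 to 9149639 followed, with means of 61.5, 63.5, 64.1 and 65.1%. At each of these 5, some libraries lay close to the limit of the rule and others covered nearly the whole member. The peaks there were not all weak: at the chromosome 14 member the strongest peak stood at a median percentile of 98.1 by fold within its list. The member with the largest SD between libraries lay on chromosome 24 from 4195746 to 4200859, where cover was 77.1% ± 18.5 and ran from 52.3% in control 30 replicate 5 to 99.8% in familiar 120 replicate 1. Next were a member on chromosome 2 from 3276189 to 3280297, with an SD of 17.4, and a member on chromosome 20 from 21737202 to 21742635, with an SD of 17.1. The chromosome 20 member was also the most isolated, with 47756 bp to the nearest other region.

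Regions close to the limits of the rule differed little across it. The members of lowest minimum cover lay on chromosome 17 from 19043397 to 19047048 with 50%, on chromosome 1 from 28393095 to 28396240 with 50%, and on chromosome 6 from 6031943 to 6036398 with 50.02%. The regions just outside lay on chromosome 5 from 7268431 to 7274516 with 49.98%, on chromosome 10 from 28409811 to 28413516 with 49.97%, and on chromosome 3 from 22951923 to 22956916 with 49.96%. Their mean cover, 75.3, 84.6 and 77.4%, lay within the range of members. The shortest members were 3002 bp on chromosome 1 from 33400975 to 33403976, 3003 bp on chromosome 8 from 19350745 to 19353747 and 3006 bp on chromosome 7 from 15316885 to 15319890. Regions of 2998, 2997 and 2996 bp at the lower limit of length, and of 10031, 10035 and 10036 bp at the upper one, were also present in all 22 libraries. A single library often decided membership: 1118 regions of the length class were present in 21 of 22, and in 775 of them (69.3%) the library that missed was familiar 120 replicate 3. Familiar 120 replicate 4 alone missed 96 and control 30 replicate 3 alone missed 42, while each of the other 19 libraries alone missed 1 to 24.

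Members were covered most at their centre and least at their ends. Averaged over both ends, the outermost 5% of the length was under peaks at 32.3% ± 5.08 of bases (SD, n = 22 libraries), the next 5% at 62.3% ± 6.04 and the following 5% at 78.3% ± 5.03. The innermost 5% on each side of the centre was at 96.1% ± 1.55. The rule bears on this profile: an end lies where as few as 3 of the 22 libraries have a peak, every library must cover at least 50% of a member, and cover at the centre is close to its upper limit of 100%. The profile and its SDs are therefore a description, and the spread at the ends is not set against that at the centre. At the ends, group means were 34.5% ± 4.44 for the 5 familiar 30 libraries, 34.2% ± 1.40 for the 5 control 30 libraries, 30.2% ± 7.64 for the 6 familiar 120 libraries and 31.2% ± 4.197 for the 6 control 120 libraries. At the centre they were 96.7, 96.5, 95.2 and 96.2% in the same order. The spread of familiar 120 came with replicate 4 at 17.8% of the outermost bases and replicate 3 at 90.7% of the innermost, the lowest values of all 22 libraries in each bin.

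**Figure D2:**
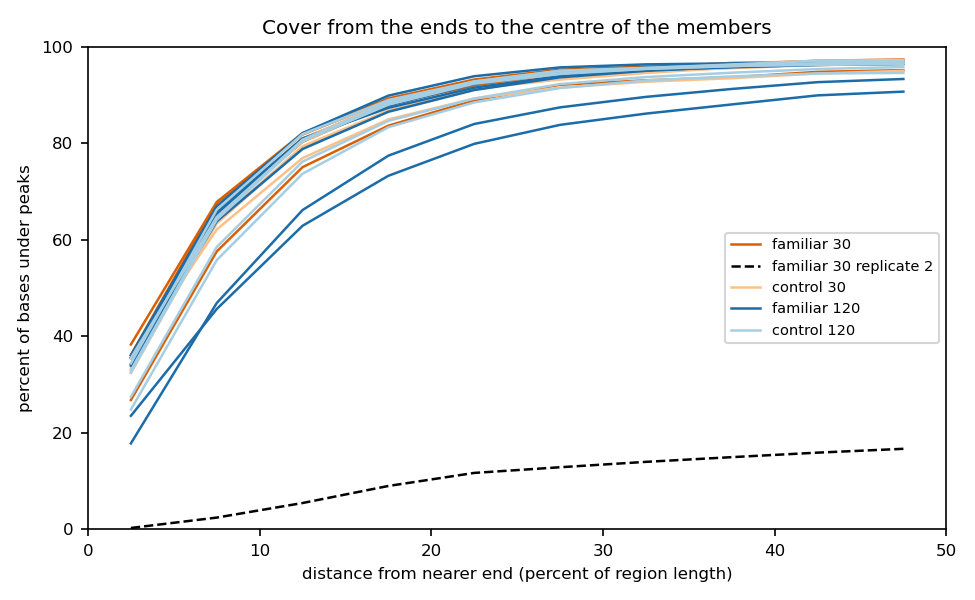
The percent of bases under peaks is plotted against the distance from the nearer end of a member, in percent of its length, averaged over the 1539 members, with 1 line for each library coloured by group. Cover climbs from a mean of 32.3% in the outermost 5% to 96.1% at the centre in the 22 libraries, and the dashed line of familiar 30 replicate 2 from 0.230% to 16.7%.

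Every member had a core, here meaning bases under peaks in all 22 libraries. The rule bears on this, since an unbroken peak over at least 50% of a member reaches its middle. At the 686 members with a single peak in every library, the rule alone gives a core of 1 piece at the middle. The presence, pieces and position of cores are therefore a description and not a result. The core had a median of 2730 bp or 53.5% of the member, and it made up at least 50% of the length in 978 members (63.5%). It was a single piece in 1042 members (67.7%), 2 pieces in 415 (26.97%) and 3 or more in 82 (5.33%). The longest piece was centred in the middle 3rd of the member in 1124 (73.0%). In a set of 3 members picked after their values were seen, the core was longest: 9048 bp on chromosome 17 from 4719439 to 4729004, 8364 bp on chromosome 12 from 29669554 to 29679366 and 8043 bp on chromosome 16 from 13676343 to 13686277. Each of these cores was unbroken. At the other extreme, a core covered 6.36% of its member.

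Most members were called as 1 broad peak rather than as several. Over all pairs of a member and a library, 84.2% ± 3.73 held a single peak (SD, n = 22 libraries, 74.1 to 88.4%), and 686 members (44.6%) held a single peak in every library. A single member held 2 or more in every library. In the other classes the share is of pairs with at least 1 peak. It was 62.7% for regions of 3 to under 10 kb missing from some libraries. For regions present in all it was 32.1% at 10 kb or longer and 99.9% at 1 to under 3 kb. Within the members the share was 97.2% at 3 to 4 kb and 58.4% at 9 to 10 kb. The share of the core differed less with length, with a median of 55.8% of the member at 3 to 4 kb and 50.3% at 9 to 10 kb. How far the broken calls follow from the cover that defines the classes was not tested.

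The rule used the extent of peaks and not their strength, but both come from the same peak calls and are not independent. Strength was read as the authors' fold enrichment of the strongest peak touching a member, turned into a percentile among all peaks of that library's own list. Members had a median percentile of 90.4 over libraries and members, against 67.3 in regions of the same length missing from some libraries. Regions present in all libraries stood at 88.2 for 1 to under 3 kb and 92.3 for 10 kb or longer, and all regions at 54.5. The median fold itself was 4.69 in members, and 3.21, 4.46, 4.93 and 2.83 in the same 4 classes. Libraries without a peak at a region did not enter these medians for that region. The strongest peak stood at or above the 90th percentile of its list in every library at 255 members (16.6%) and at or above the 75th percentile in every library at 754 (49.0%). It fell under the median of its list in at least 1 library at 230 (14.9%). Members were thus mostly, but not all, places of strong enrichment. The other classes present in all libraries had similar medians, so this is not particular to members. How far it follows from the rule was not tested.

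The 3 members of highest percentile were picked after their values were seen. The member on chromosome 17 from 16580787 to 16584113 had a median fold of 12.1, and its peak never stood below the 99.9th percentile of a list. Its cover was 76.8% ± 10.2 (SD, n = 22), with values from 54.6 to 100%. The member on chromosome 21 from 8123092 to 8127782 had a median fold of 11.7 and cover of 90.1% ± 5.12. That on chromosome 8 from 19565221 to 19572715 had a median fold of 11.005 and cover of 73.1% ± 11.4. Their cover thus lay on both sides of the mean of all members. The shortest member, on chromosome 1 from 33400975 to 33403976, came near them in strength, with a median fold of 10.6 and cover of 85.4% ± 5.56. By contrast, the next shortest, on chromosome 8 from 19350745 to 19353747, had a median fold of 3.14, and its peak stood at percentile 3.53 in the library where it ranked lowest.

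With peaks of a deposited −log10 q of at least 5 only, 704 members (45.7%) still had 50% or more of their bases covered in every library, and 141 (9.16%) had so in fewer than 11 libraries. Per library, 65.95 to 94.7% of members were present at this limit. The 2 lowest were familiar 120 replicate 3 with 65.95% and familiar 120 replicate 4 with 68.7%. All other libraries kept 80.2% or more.

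Familiar 30 replicate 2 gave a look at the members in a library that the rule did not use. Its 7077 peaks had a median width of 520 bp. They touched 898 of the 1539 members, or 58.3% (95% Wilson interval 55.9 to 60.8%), against 1263 of 7051 or 17.9% (17.03 to 18.8%) of the other regions of 3 to under 10 kb. In this 1 library, members were thus touched more often than the other regions of the length class. Those were shorter, with a median of 4514 bp against 5068 bp, and weaker, with a median fold percentile of 67.3 against 90.4. The part of length and strength in the difference was not tested. Among regions present in all 22 libraries the share was 35.8% (33.8 to 37.97%) for 1 to under 3 kb and 81.5% (78.98 to 83.8%) for 10 kb or longer, and over all regions it was 9.52%. Longer regions offer more bases to be touched, so these 3 shares are not compared for strength. The intervals treat regions as independent, which neighbouring regions need not be, and are not used as a test. They cover counting of regions within 1 library and say nothing of the spread between fish. Members took 17.9% of the length of this list, and with its peaks of −log10 q of at least 5 only, a limit chosen after the data were seen, 0.585% of members were touched.

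Inside members, the peaks of this library fell mostly into the bases that the other 22 shared. Of the 842.6 kb of its peaks inside members, 98.2% lay in the cores, which made up 56.996% of the length of the members it touched. Its cover was 0.230% in the outermost 5% of members and 16.7% in the innermost. Among members ordered by fold percentile in the other libraries and divided into 4 sets of 384 or 385, it touched 12.8% of the lowest, 49.4%, 78.4%, and 92.7% of the highest. It covered 50% or more of 18 members. It covered most of the member on chromosome 11 from 31236983 to 31240319, with 63.9%, where the other 22 libraries averaged 93.9% ± 2.52. Next were the chromosome 21 member from 8123092 to 8127782 with 63.6%, chromosome 17 from 14469809 to 14473252 with 61.8%, chromosome 4 from 3403466 to 3407602 with 59.8% and chromosome 3 from 35899167 to 35902438 with 59.7%. In the other libraries the strongest peaks at these 5 had median percentiles of 98.4 to 99.99.

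All members lay on the 24 numbered chromosomes and none on a scaffold. Chromosome 9 held the most, 102, and chromosome 19 the fewest, 28. Per Mb of chromosome up to its last peak, chromosomes 24 and 21 were the richest with 3.58 and 3.45 members, then 9, 17 and 12 with 3.02, 2.82 and 2.77. Chromosome 19 had 1.07 per Mb, chromosome 2 had 1.53 and chromosome 23 had 1.58. Part of this order belongs to the length class as a whole, since chromosome 21 held 17.5 regions of 3 to under 10 kb per Mb and chromosome 19 held 9.04. The share of the class that was present in all libraries differed less, with 21.8% on chromosome 9, 21.5% on chromosome 24 and 11.8% on chromosome 19.

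**Figure D3:**
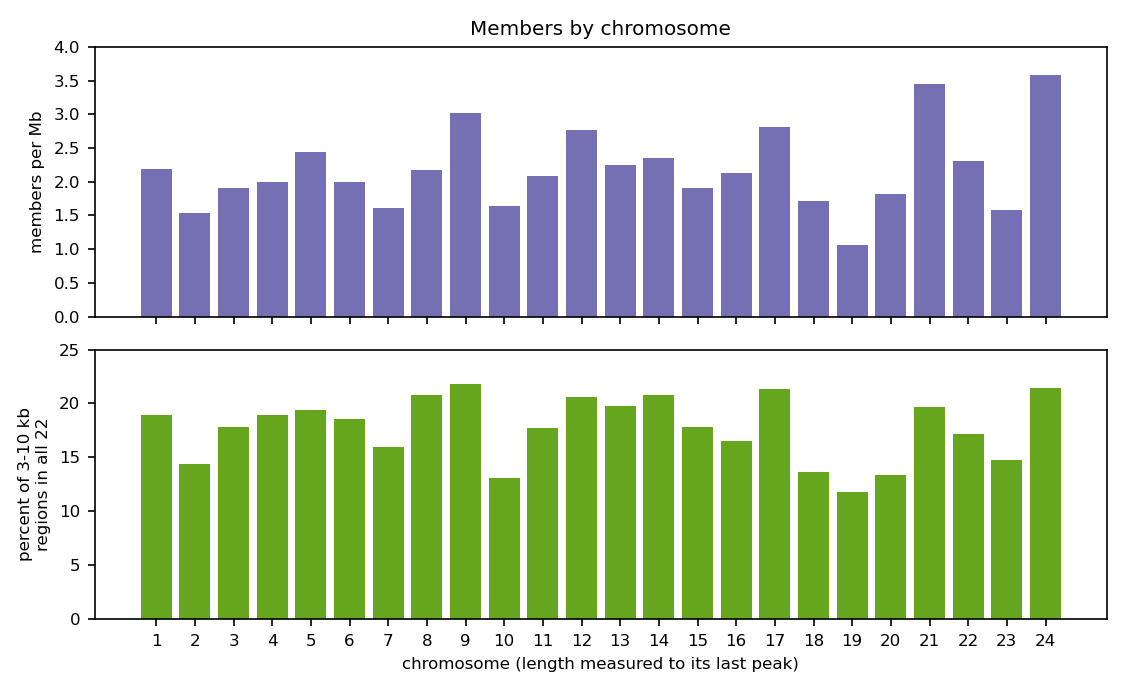
The upper bars give members per Mb of each chromosome, measured to its last peak, and the lower bars the percent of regions of 3 to under 10 kb that are present in all 22 libraries. Chromosomes 24 and 21 have the most members per Mb (3.58 and 3.45) and chromosome 19 the fewest (1.07); the lower share is highest on chromosome 9 (21.8%) and lowest on chromosome 19 (11.8%).

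The outermost 10% at either end of the chromosomes held 18.6% of members, against 13.4% of the other regions of the length class and 17.4% of all regions. Among other regions present in all libraries, the share was 20.9% for 1 to under 3 kb and 6.87% for 10 kb or longer. Members usually had a neighbour: the nearest other region of any kind was a median of 1459 bp away, against 1360 bp for the other regions of the class, and 30.6% had one within 1 kb, against 33.5%. The nearest other member was a median of 97.1 kb away, and 123 members (7.99%) had one within 5 kb. The nearest region of 10 kb or longer present in all libraries was a median of 183809 bp away. In windows of 250 kb, chosen after their counts were seen, the closest group was 8 members between 7428200 and 7603781 on chromosome 9. Another 7 lay between 844652 and 1076044 on chromosome 7. Groups of 6 lay on chromosome 9 from 17975371 to 18207765, chromosome 14 from 652767 to 890710 and chromosome 17 from 29114550 to 29315760.

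Mean cover of the members by library was 80.1 to 85.1% in familiar 30, 81.7 to 84.2% in control 30, 72.4 to 85.2% in familiar 120 and 79.4 to 84.6% in control 120. Group means were 83.7% ± 2.06 (SD, n = 5) for familiar 30 and 83.3% ± 1.01 (n = 5) for control 30. They were 80.6% ± 5.53 (n = 6) for familiar 120 and 82.7% ± 2.13 (n = 6) for control 120. All groups overlapped. The low end of familiar 120 was replicate 3 with 72.4% and replicate 4 with 74.7%, while its other 4 libraries had 83.2 to 85.2%. Either of these 2 libraries was the one of lowest cover at 776 of 1539 members (50.4%). Both carry title numbers, taken as fish numbers, of 43 to 59. In that range familiar 120 averaged 73.5% (n = 2) and control 120 82.3% (n = 3). At numbers 17 to 29 familiar 120 averaged 84.2% (n = 2) and control 120 82.5% (n = 2), and at 69 to 80 familiar 120 averaged 84.0% (n = 2) and control 120 84.6% (n = 1). At numbers 43 to 59 familiar 30 averaged 84.7% (n = 2) and control 30 82.9% (n = 3), and at 69 to 80 familiar 30 averaged 82.6% (n = 2) and control 30 83.7% (n = 2). The direction between familiar and control was thus not the same in every range of fish numbers.

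**Figure D4:**
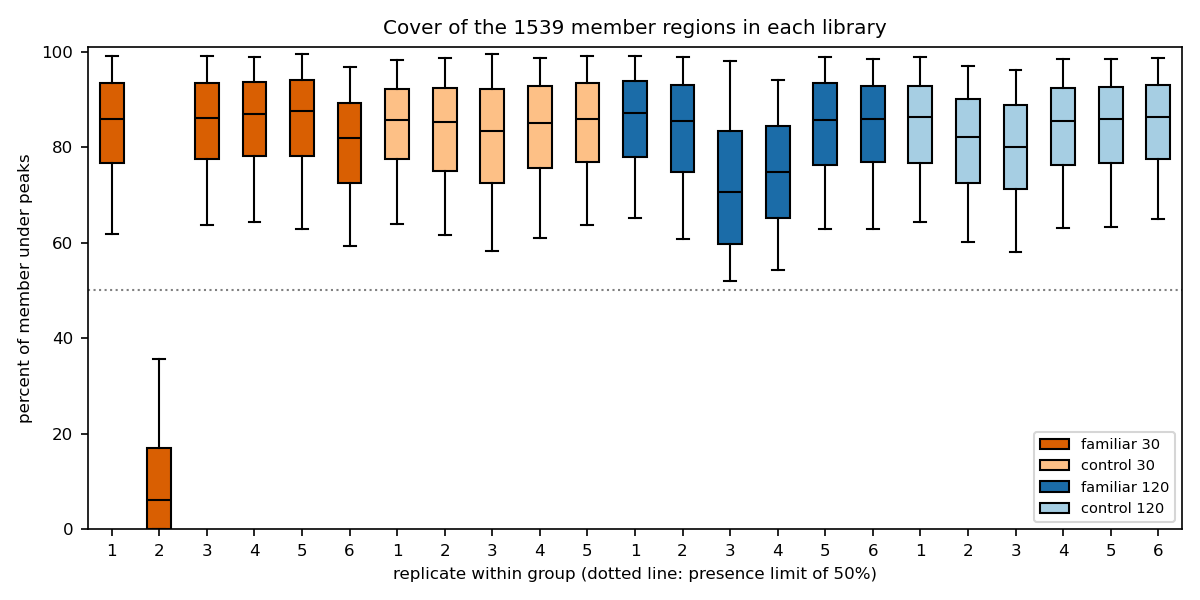
Each box gives the percent of member bases under peaks over the 1539 members in 1 library, with the median, the quartiles and whiskers at the 5th and 95th percentiles, for the groups familiar 30, control 30, familiar 120 and control 120. Familiar 120 replicates 3 and 4 have medians of 70.7 and 74.8%, and familiar 30 replicate 2, which did not enter the choice of members, has 6.17%.

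Cover was compared between groups with limma over all 52924 regions of 5 to 95% mean cover, which included 1523 members and left out 16 above 95%. The rule keeps every member between 50 and 100% in each library tested, so differences between group means could not pass 50 percentage points. No region and no member passed an adjusted p of 0.05 in any of the 5 comparisons, so the share called was 0% over all regions. The lowest adjusted p (limma, Benjamini-Hochberg) of any member was 1 for familiar 30 against control 30, 0.968 for familiar 120 against control 120, 1 for control 120 against control 30, 0.999 for familiar 120 against familiar 30 and 0.99986 for the interaction of familiarity with the label number. At an unadjusted p under 0.05, the members numbered 4, 15, 7, 11 and 16 in the same order, with their directions given below for each comparison. Members varied less between libraries than the regions among which limma pools its estimate of spread, with a median residual SD of 10.2 percentage points against 29.8 over all regions tested. The common spread that limma pools towards was an SD of 22.7, which widens the standard errors of members and makes the test conservative for them. The lack of called members thus does not show that members did not differ, and low counts by p are not read as a result about them. The counts are therefore also given with the spread fitted along mean cover, an alternative chosen after the data were seen, under which again no member was called. Over all regions it called 1 of 52924, higher in control 120 against control 30, and 0 in the other comparisons.

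For familiar 30 against control 30, the median difference over members was 0.485 percentage points, against 0.444 over all regions, and 822 members were higher and 701 lower in estimate. The direction did not hold under every alternative: the median over members was −0.337, with 712 higher and 800 lower, without the 3 libraries that share extra regions in earlier results (familiar 120 replicate 3, control 30 replicate 3 and familiar 30 replicate 4), and −0.181, with 745 higher and 778 lower, with fish-number ranges entered as blocks. It was −0.116, with 754 higher and 769 lower, with these blocks and covered length in the model. With all 23 libraries it was −11.97, with 28 higher and 1509 lower. Leaving out 1 library gave 1.27 without familiar 30 replicate 6, 0.110 without control 30 replicate 3, 0.158 without familiar 30 replicate 5, 0.288 without familiar 30 replicate 3 and 0.290 without familiar 30 replicate 4. At an unadjusted p under 0.05, 3 members were higher (1.72% of all regions were) and 1 was lower (1.27% of all regions). With the spread fitted along mean cover these were 10 higher (1.52% of all regions) and 7 lower (1.10%). Groups did not overlap at 1 higher member (0.149% of all regions) and 3 lower ones (0.111%). The members' counts by p lie under or near the background, on which the rule and the pooled spread bear, and are not read as a result. Counts without overlap of this size, here and in the comparisons that follow, are too small to read against the background.

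At the member on chromosome 23 from 16054020 to 16057376, cover was 54.1, 55.4, 54.2, 59.3 and 59.8% in familiar 30, against 78.6, 93.8, 76.7, 80.9 and 96.8% in control 30. All 5 familiar libraries lay below all 5 control libraries. The difference was −28.8 ± 9.69 percentage points (SE, limma adjusted p = 1). The member on chromosome 12 from 29684401 to 29691118 had 90.8, 94.9, 90.8, 93.4 and 77.97% in familiar 30, against 64.5, 69.9, 59.3, 69.5 and 84.9% in control 30. The groups overlapped at the lowest familiar and the highest control library, and the difference was 19.9 ± 8.44 (limma adjusted p = 1). On chromosome 21 from 13073962 to 13077117, cover was 91.7, 100, 91.3, 96.5 and 60.2% in familiar 30, against 51.7, 54.97, 64.2, 65.9 and 87.5% in control 30. The groups overlapped there too, with a difference of 23.1 ± 10.04 (limma adjusted p = 1).

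For familiar 120 against control 120, the median difference over members was −2.23, against −4.13 over all regions, with 504 members higher and 1019 lower in estimate. Without familiar 120 replicates 3 and 4, a choice made after their cover was seen, the median over members was 1.36, with 904 higher and 608 lower. It was −0.514 without replicate 3 alone and −1.04 without replicate 4 alone. With the covered length of each library in the model it was −0.354. Other alternatives made it larger in size. It was −3.80 with peaks of −log10 q of at least 5 only and −2.65 with fish-number ranges as blocks. At an unadjusted p under 0.05, 2 members were higher (0.703% of all regions) and 13 lower (3.65%). Without the 2 libraries these were 10 higher (2.45%) and 1 lower (1.28%), so the side with more members turned. With the spread fitted along mean cover these were 7 higher (0.614%) and 40 lower (3.99%) with all 22 libraries. All these counts lie under the background, but the rule and the pooled spread bear on them, so this is not read as a result about members. Groups did not overlap at 2 higher members (0.00945% of all regions) and 3 lower ones (0.104%).

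On chromosome 1 from 16982045 to 16985811, cover was lowest at 51.4%, with a median of 65.4% and a highest of 67.6% in familiar 120, against a lowest of 79.3%, a median of 87.7% and a highest of 100% in control 120. The groups did not overlap, and the difference was −27.8 ± 7.40 percentage points (SE, limma adjusted p = 0.968). With peaks of −log10 q of at least 5 only, the difference there was 4.17, so its direction turned with that limit. On chromosome 6 from 14875062 to 14878417 it was the familiar libraries that were higher, with 78.2, 88.0 and 92.3% as lowest, median and highest in familiar 120, against 56.1, 62.0 and 74.8% in control 120. This difference was 23.1 ± 7.69 (limma adjusted p = 0.968), and familiar 120 replicates 3 and 4, low in general, had 91.2 and 80.01% here. The member on chromosome 16 from 27489488 to 27495831 had 56.8, 65.3 and 84.7% in familiar 120, against 76.0, 88.4 and 92.6% in control 120, which overlapped. Familiar 120 replicates 3 and 4 had the lowest values of their group there, 56.8 and 57.9%.

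For control 120 against control 30, the median difference was −0.340 over members and 0 over all regions, with 716 members higher and 807 lower in estimate. The direction turned to 0.352, with 800 higher and 723 lower, with covered length in the model, to 0.256 without control 120 replicate 3 and to 0.043 without control 120 replicate 2. The median was also above 0, at 0.0569 with 768 higher and 755 lower, with fish-number ranges as blocks and covered length in the model. Without any 1 of the other libraries it was −0.777 to −0.127. At an unadjusted p under 0.05, 2 members were higher (1.75% of all regions) and 5 lower (1.45%). With the spread fitted along mean cover these were 8 higher (1.70%) and 10 lower (1.08%), and groups did not overlap at 2 higher (0.102%) and 5 lower members (0.100%). On chromosome 3 from 30408108 to 30414019, cover was 54.99, 73.7 and 87.2% as lowest, median and highest in control 120, against 92.7, 90.3, 93.98, 94.99 and 97.04% in control 30. The groups did not overlap, with a difference of −20.9 ± 8.79 percentage points (SE, limma adjusted p = 1). Next by p came a member on chromosome 9 from 29043982 to 29048784 and another on chromosome 24 (5319345 to 5324039). Their means were 64.2% ± 4.81 in control 120 and 83.6% ± 13.2 in control 30 on chromosome 9. They were 79.3% ± 10.97 in control 120 and 96.7% ± 3.36 in control 30 on chromosome 24, and in both the groups overlapped.

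For familiar 120 against familiar 30, the median difference over members was −3.12, against −4.81 over all regions, with 426 members higher and 1097 lower in estimate. Without familiar 120 replicates 3 and 4 it was 0.290, with 791 higher and 721 lower. It was −1.20 without replicate 3 alone, −1.98 without replicate 4 alone and −0.256 with covered length in the model. Other alternatives made it larger in size. It was −4.89 with peaks of −log10 q of at least 5 only and −3.41 with fish-number ranges as blocks. At an unadjusted p under 0.05, 1 member was higher (0.695% of all regions) and 10 lower (3.49%). Without the 2 libraries these were 5 higher (2.62%) and 6 lower (1.48%). With the spread fitted along mean cover and all 22 libraries, 5 were higher (0.597%) and 57 lower (3.59%). The lower ones were 3.74% of the members tested and so near the background. Groups did not overlap at 1 higher (0.0113%) and 6 lower members (0.157%).

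On chromosome 22 from 3951741 to 3956750, cover was 64.8, 69.8 and 77.6% as lowest, median and highest in familiar 120, against 95.3, 97.3, 95.7, 96.0 and 84.2% in familiar 30. The difference was −23.3 ± 7.37 percentage points (SE, limma adjusted p = 0.999). On chromosome 1 from 15822297 to 15825443, it was 59.3, 65.95 and 69.8% in familiar 120, against 82.8, 86.1, 81.3, 100 and 93.8% in familiar 30. The 3 members of smallest p, these 2 and the member on chromosome 17 from 11521337 to 11531058, were lower in every familiar 120 library than in any familiar 30 library. On chromosome 17 the means were 64.7% ± 9.49 in familiar 120 and 85.6% ± 8.69 in familiar 30. Familiar 120 replicate 3 had the lowest value of its group there, 53.3%, but the highest at the chromosome 1 member, 69.8%. The comparisons share libraries in pairs, so their members are not set against each other. The interaction, which is the familiar minus control difference at 120 less that at 30, had a median of −2.64 over members and −5.19 over all regions, with 555 members higher and 968 lower. Without familiar 120 replicates 3 and 4 the median over members was 0.715, with 827 higher and 685 lower. It was −1.12 without replicate 3 alone and −1.4995 without replicate 4 alone, but −4.78 with peaks of −log10 q of at least 5 only. At an unadjusted p under 0.05, 7 members were higher in the interaction (0.926% of all regions) and 9 lower (3.22%). Without the 2 libraries these were 6 higher (2.10%) and 5 lower (1.73%). With the spread fitted along mean cover these were 10 higher (0.746%) and 24 lower (3.33%) with all 22 libraries. All of these are under the background, on which again the rule and the pooled spread bear. None of the 12 members named for the comparisons fell under an adjusted p (limma) of 0.697 in any alternative.

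**Figure D5:**
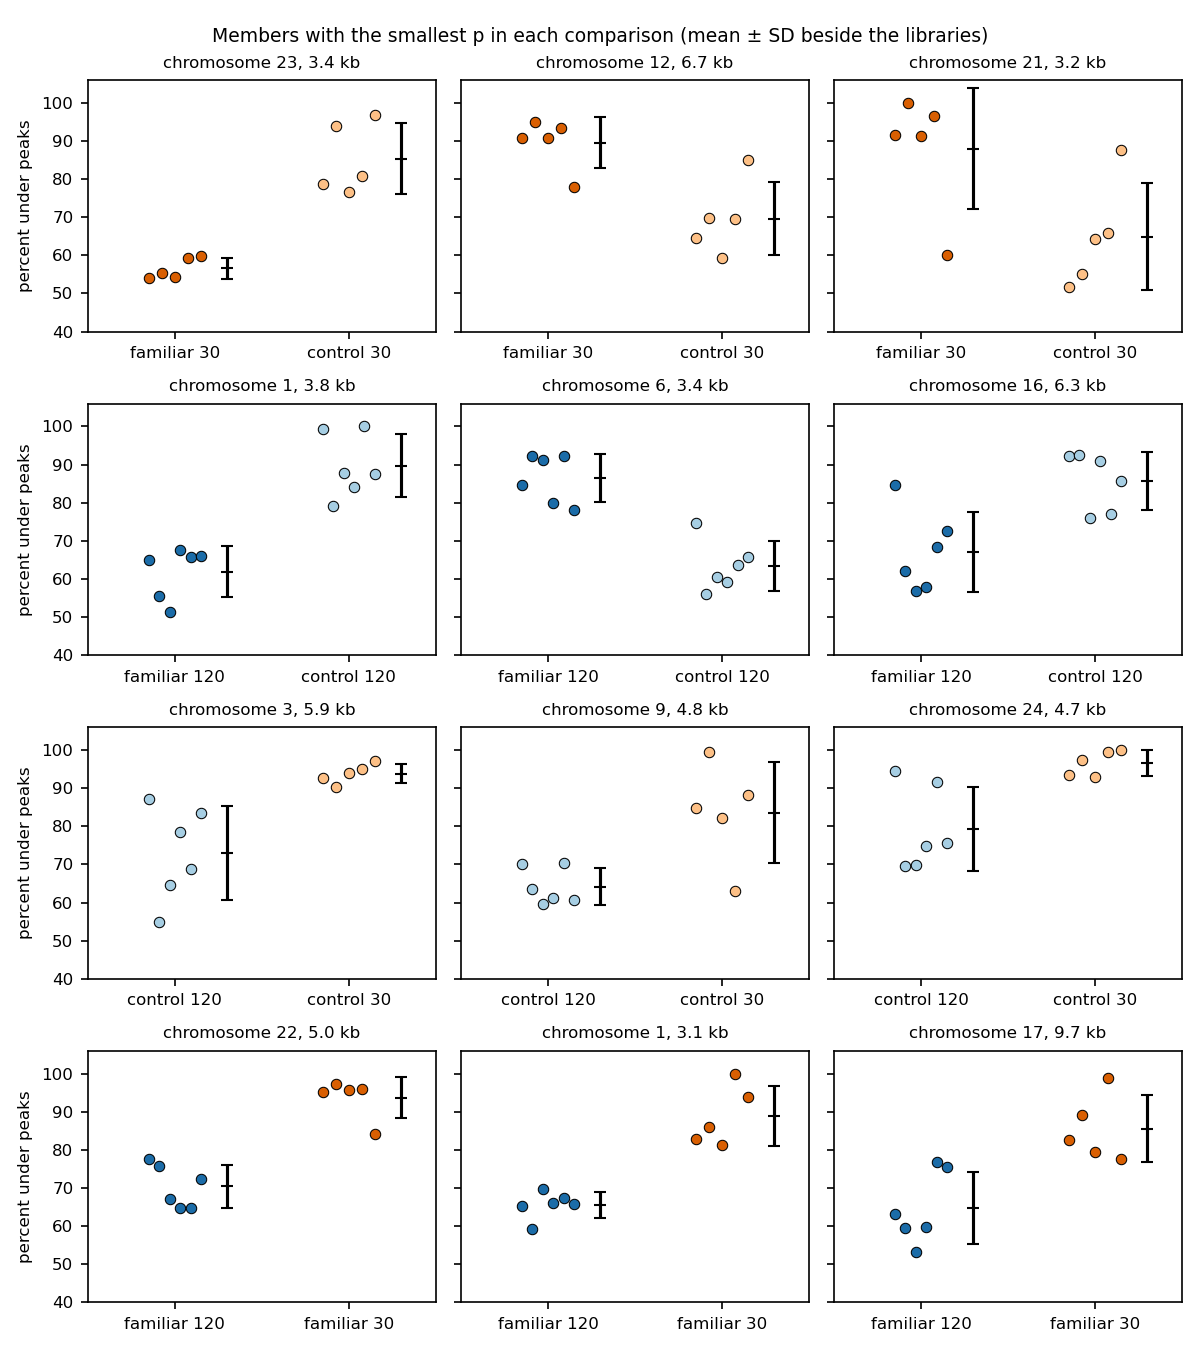
Each panel shows 1 member, by chromosome and length, with the percent of its bases under peaks in each library of the 2 groups compared, and the mean ± SD beside the points; rows are familiar 30 against control 30, familiar 120 against control 120, control 120 against control 30, and familiar 120 against familiar 30. On chromosome 23 familiar 30 lies at 54.1 to 59.8% and control 30 at 76.7 to 96.8%, and on chromosome 6 familiar 120 lies at 78.2 to 92.3% and control 120 at 56.1 to 74.8%.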

How the data were processed

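H3K27ac CUT&RUN was done on adult forebrain with a commercial kit, and libraries carried adapters with molecular identifiers, per the labels' protocols. Tools listed in the submitters' processing notes are MACS2, Bowtie2, Picard, SAMtools, FastQC and Trimmomatic 0.39. Settings of the peak caller, use of the input and the build are not given in the sources at hand. The authors deposited 1 broad peak list for each library. Each list gives, as deposited by the authors, a score, a fold enrichment, which is a ratio of signal over background, a −log10 p and a −log10 q per peak. The smallest −log10 q is 1.00, so weaker peaks are missing from the lists. Such values come from the authors' peak caller. Fold was turned into percentiles inside single lists, but medians of the fold itself over libraries are also given for classes and named members. The same limit, a −log10 q of at least 5, was applied to every list, and its results are given across libraries and groups. How far fold and q can be compared between lists was not tested. Read depth is unknown, so no counting error is given, and the part of depth in cover was not tested.

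Regions and members were built as the report says, with the mitochondrial genome left out. Familiar 30 replicate 2 was left out because its peaks numbered less than 0.5 times the median of 45859. A peak touched a region from 1 shared base. Cover was tested with limma 3.58.1 (R 4.3.3) with 4 groups in 1 model, a filter of 5 to 95% mean cover and Benjamini-Hochberg adjustment over all regions tested. Tables and figures were made with Python 3.11.15, numpy 2.4.6, scipy 1.17.1, pandas 2.3.3 and matplotlib 3.10.9. The scripts were tested on simulated or shuffled values. In the test of limma the changed regions differed by more than members can. It therefore does not show how well differences of members would be found. Percent cover is bounded, which the linear model does not describe.

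Groups and fish numbers come from the titles, and replicates were numbered in accession order. Whether libraries come from separate fish is not stated beyond these numbers, and the p-values reflect variation from library to library, part of which may be technical. No 2 lists were identical. The rule, the members and the lists were chosen with earlier results of these data known. Members are named if they are the 5 longest, the 5 of highest and the 5 of lowest mean cover, the 3 of largest SD, the 3 of smallest p in each of the 4 comparisons of groups (none for the interaction), those nearest the limits of the rule, and the 5 most covered in familiar 30 replicate 2; others are said to be chosen after their values were seen. Alternatives changed the share that counts as present, the joining of peaks, the q limit, the libraries, covariates, weights, filter and scale.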

Additional observations from a re-analysis of the deposited data

Results flagged for a closer look

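In groups of 5 or 6 libraries, 52 sets of values were examined for 1 value far from the rest, and 9 were found. For independent sets chance would give about 1 in 20. These sets share libraries, and some are of members chosen by their p, so the 9 are not set against that rate. Of the 9, 5 belong to familiar 30 replicate 2, set among all 6 familiar 30 libraries. Its mean cover of members was 10.3%, and its share of list length in members was 17.9%. Of all 1539 members, 49.3% held a single peak in it. The 41.7% of members without a peak count as not single, so this value does not show that its calls were more broken. The median within-list percentile of fold was 64.2 at the members that this library touched, and 0.0650% of members were present with peaks of −log10 q of at least 5. This library lies outside the comparisons, and its peaks touched 58.3% of members.

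Familiar 120 replicate 3 stood apart from the other 5 familiar 120 libraries in the median within-list percentile of fold at the members, which was 83.98. Familiar 30 replicate 6 stood apart from the other 4 familiar 30 libraries used at 3 named members. It covered 77.97% of the member on chromosome 12 from 29684401 to 29691118, 60.2% of that on chromosome 21 from 13073962 to 13077117 and 84.2% of that on chromosome 22 from 3951741 to 3956750, the lowest of its group in each. The reasons were not tested.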

How the results depend on the processing

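The number of members, 1539, kept within 1.5 times under 25 of 34 alternatives. It was 4421, 176 and 8 where presence meant 25, 75 and 90% of bases, 2937 with bases required in 11 libraries, 775 with peaks of −log10 q of at least 5, 18 with all 23 libraries, 2879 without the 3 libraries that share extra regions in earlier results, and 2586 without familiar 120 replicates 3 and 4, the last chosen after the data were seen. Leaving out each library in turn gave 1565 to 2378, the highest without familiar 120 replicate 3. No member was called under any of 169 alternatives over the comparisons. Over all regions, some alternatives did call a few. The most were 28 of 52922 regions, 27 of them lower, for familiar 120 against familiar 30 without familiar 30 replicate 6. Every other alternative called 0 to 3 regions. The rule limits the differences of members, and the pooled spread exceeds theirs, so a call was hard to reach. The lack of calls does not show that members did not differ. With all 23 libraries the median difference over members was −11.97 for familiar 30 against control 30, 9.14 for familiar 120 against familiar 30 and 9.82 for the interaction, which was 0.715 without familiar 120 replicates 3 and 4. The members named for the comparisons were chosen by their p in these same libraries, so a kept direction mostly follows from that choice. Their differences kept direction under 407 of 408 alternatives. The exception is the chromosome 1 member from 16982045 to 16985811, at 4.17 with peaks of −log10 q of at least 5. Members touched in familiar 30 replicate 2 were 0.585% at that limit. The causes were not tested. No paired analysis was possible because the labels give no number shared between groups. Read depth is unknown.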
